A study of Mus musculus with 2 samples.

Results

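The genes described here are 34 genes of DNA replication and S phase, chosen by a list of symbols and all found, of 27998 gene rows, in single-cell RNA-seq of microglia. The series has 2 libraries, 1 for each of a medial and a lateral piece of the corpus callosum, a white matter tract between the hemispheres. Both groups were C57Bl6 mice with the genotype given as CX3CR1, fed for 4 weeks with cuprizone, a copper-binding toxin to oligodendrocytes that causes demyelination. The sources used here do not give the allele, the sort gate or the age and number of the mice, and no group without cuprizone was analysed. Sorted cells went without culture into 10x Genomics 3' libraries, in which each captured molecule is counted once by its unique molecular identifier (UMI).

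A barcode counted as a cell at 2400 or more UMIs and at most 10% mitochondrial UMIs, which gave 2131 medial and 2308 lateral cells with medians of 10732 and 9694 UMIs, and 7 of their barcodes occurred in both libraries. All 8 microglial markers were detected, at 92.2 and 96.2 per 10000 UMIs, while 14 lists for other cell types lay between 0.000853 and 1.14 per 10000. The highest of these was the endothelial list, at 1.14 in medial and 0.984 in lateral cells (2681 and 2267 UMIs). It was the only one of them with a median per cell above 0. Of 6 border macrophage markers 4 were detected (1089 medial and 818 lateral UMIs), with Lyve1 and Cd163 at 0 in both libraries. Oligodendrocyte markers were detected for 3 of 5 genes (1403 and 1352 UMIs), with Mog and Mobp at 0, and astrocyte markers for 4 of 5 (1021 and 1074 UMIs), with Aqp4 at 0. Of 5 oligodendrocyte precursor markers, medial cells had 2 and lateral cells 3, with Olig2 and Sox10 at 0 in both. With 1 library per region there is no test between regions. Intervals in parentheses are at 95% and cover counting error only, and cells of 1 library are not replicates.

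Before a cell copies its DNA, the loading factors Cdc6 and Cdt1 place the ring of MCM proteins on replication origins in G1. At the start of S phase Cdc45 and the GINS complex turn that ring into a moving helicase, behind which primase, the polymerases and the sliding clamp PCNA build the new strands. Most of the genes involved are transcribed together at the G1 to S transition under E2F transcription factors, which cyclin E and its kinase release from the retinoblastoma proteins. Microglia divide in place in demyelinated tissue.

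The letters of an E2F site were looked for in the promoters, since the members are known as a co-transcribed group. The RefSeq table of promoters (GRCm38.p6, 250 bases before to 50 after a gene's start) held 30 of the 34 genes, and Mcm4, Gins2, Ccne2 and Rfc2 were not among them. TTTCCCGC, TTTCGCGC, TTTGCCGC or TTTGGCGC was found on either strand for 13 of those 30 genes (43.3%), and for 2.61% of the 27025 genes in the table, or 2.26% of its 32851 windows. Matches to these 8 letters on opposite strands can overlap. A match was found for 4 of the 5 MCM genes that the RefSeq promoters cover. The windows below show, for these 4 and for 4 genes of licensing, checkpoint and chromatin, where the matched letters lie, in capitals, with the rest in lower case. Each is read 5′ to 3′ on the gene's strand.
Mcm3, chr1:20820263-20820319, minus strand: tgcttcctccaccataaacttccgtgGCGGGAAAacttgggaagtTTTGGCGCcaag
Mcm5, chr8:75109330-75109389, plus strand: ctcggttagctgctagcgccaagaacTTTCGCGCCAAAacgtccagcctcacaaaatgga
Mcm6, chr1:128359782-128359841, minus strand: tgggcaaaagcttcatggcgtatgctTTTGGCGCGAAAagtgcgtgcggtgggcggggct
Mcm7, chr5:138171834-138171893, minus strand: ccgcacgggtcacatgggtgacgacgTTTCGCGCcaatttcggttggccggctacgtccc
Cdc6, chr11:98907987-98908046, plus strand: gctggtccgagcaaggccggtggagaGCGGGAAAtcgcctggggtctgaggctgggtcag
Clspn, chr4:126556975-126557029, plus strand: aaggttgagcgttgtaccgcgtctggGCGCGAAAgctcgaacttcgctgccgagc
Dtl, chr1:191575519-191575578, minus strand: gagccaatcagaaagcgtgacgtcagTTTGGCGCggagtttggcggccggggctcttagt
Hells, chr19:38930902-38930961, plus strand: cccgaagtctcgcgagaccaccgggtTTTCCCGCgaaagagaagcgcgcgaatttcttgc

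Counted from the gene's start, overlapping matches on opposite strands began at -153 and -149 in Mcm5 and at -110 and -106 in Mcm6. A further match, not shown, began at -47 in Mcm6 and at -165 in Mcm7. The Mcm3 matches began at 19 and 38, the Mcm7 match shown at 16 and the Dtl match at -8. The other members with a match were Cdt1, Uhrf1, Pola1, Pold1 and Lig1. A match describes letters and is no evidence of binding.

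A minority of cells carried most of these transcripts. Summed over the 34 genes, 14442 UMIs were counted in medial cells, or 616 CPM (counts scaled to 1000000 UMIs; 606 to 626), and 15693 in lateral cells, or 681 CPM (670 to 692). The 5% of cells with most member UMIs, 107 medial and 115 lateral cells, held 42.6% and 42.1% of them. The 10% with most, 213 and 231 cells, held 58.5% and 58.8%. Cells were ranked by these same UMIs, and no such share was computed for other genes. The median medial cell held 3 member UMIs and the median lateral cell 2, with maxima of 129 and 147. At full depth 88.6% of medial and 86.5% of lateral cells had a UMI of at least 1 member, and 25.2% and 24.96% of at least 5 members.

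Because deeper cells show more genes, each cell was then thinned to 4000 UMIs, which left out 148 medial and 261 lateral cells. At that depth 68.5% of 1983 medial cells and 71.5% of 2047 lateral cells had a UMI of any member. At least 5 different members were found in 198 medial cells, 9.98% (8.70 to 11.4), and in 248 lateral cells, 12.1% (10.7 to 13.6). The lateral share was the higher one at 4000 UMIs, and the 2 intervals overlap. At full depth, where medial cells were the deeper ones, the order was the other way by 25.2% to 24.96%. This is a range of a count, not a cell type: 62 medial and 81 lateral cells stood just below the limit at 4 members, and 34 and 45 cells just inside it at 5. Cells with 10 or more members made up 3.13% (2.41 to 3.99) and 3.76% (2.98 to 4.68), and the highest number in a cell was 16 and 22.

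**Figure D1:**
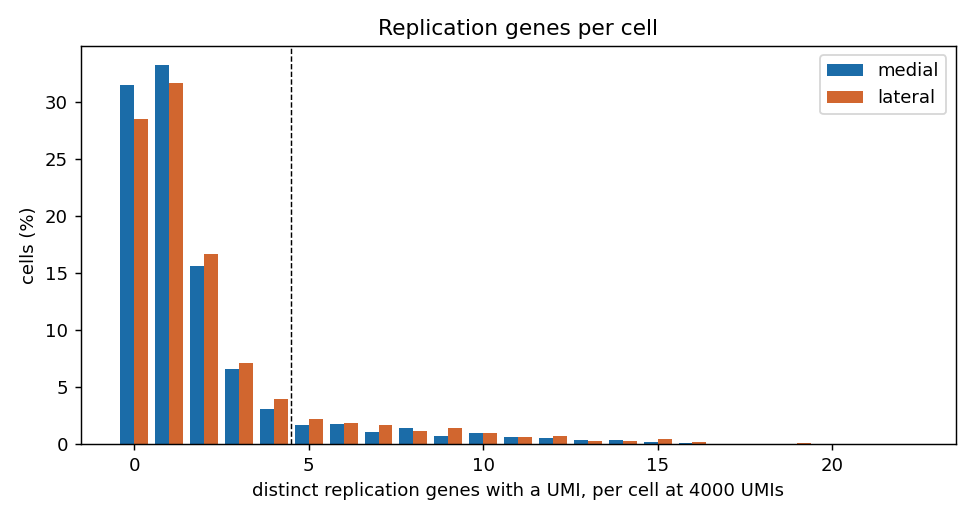
Share of cells (percent, vertical axis) by the number of different replication genes with a UMI in that cell at 4000 UMIs (horizontal axis), for the medial (blue) and lateral (orange) library. The dashed line marks the limit of 5 genes, which 9.98% of medial and 12.1% of lateral cells reached.

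Cells with at least 5 members were deeper before thinning, with median depths of 14992 (medial) and 12616.5 (lateral) UMIs against 10971 and 10247 in the other cells. Of the thinned member UMIs they held 51.5% (medial) and 55.6% (lateral). Within them the summed member level was close between the libraries, at 2754 and 2793 CPM, log2 ratio of medial over lateral -0.02 (-0.10 to 0.06). In the remaining cells it was 287 and 308 CPM, log2 ratio -0.10 (-0.19 to -0.01). Both kinds of cells were chosen by these same genes, so neither these shares of UMIs nor these ratios are independent of that choice. In medial cells with at least 5 members, oligodendrocyte precursor markers stood at 0.177 per 10000 UMIs against 0.123 in the rest. In lateral cells they stood at 0.292 against 0.0973. Neural progenitor markers were at 0.0758 against 0.0602 and at 0.171 against 0.108, and monocyte markers were also higher in both libraries. Border macrophage, oligodendrocyte, astrocyte, B cell and T or NK cell markers were lower in both. Neuron markers were at 0.101 against 0.0308 in medial and at 0.0202 against 0.0820 in lateral cells. Endothelial markers were at 1.17 against 1.12 in medial and at 0.857 against 0.981 in lateral cells. No interval was computed for these low levels. The part of other cell types in the result was not tested.

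Each member was next compared with the others: its level was taken in cells with at least 5 other members, itself left out of the count, and in the remaining cells. All 34 members were higher in the former, by a median of 10.0-fold and between 3.48-fold and 42.9-fold over both libraries. More than 5-fold was reached by 32 of 34 members, and by 1.47% of 9810 non-member genes with at least 100 UMIs, whose median was 1.04-fold. No minimum of UMIs was set for the members here. Within single libraries 32 members passed 5-fold in medial and 30 in lateral cells. The members were thus found together in the same cells, to different degrees.

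Over both libraries together, cyclin E2 had the highest ratio, and claspin was next, level with Rrm2 at 30.9-fold. In the lateral library Cdc6 was above them, on 14 UMIs against 1. Ccne2 (chr4:11191351-11204779), a cyclin that drives entry into S phase, was at 40.4 CPM in medial and 37.6 CPM in lateral cells with many other members, and at 0.980 and 0.833 CPM in the rest. Claspin, Clspn (chr4:126556935-126593903), which carries the checkpoint signal at stalled forks, was at 39.7 and 49.6 CPM against 0.979 and 1.94. Both genes were thus near the level of single UMIs outside the cells with many members.

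Rrm2 (chr12:24708241-24714146), the small and cell-cycle-limited subunit of ribonucleotide reductase, was at 196 and 203 CPM against 6.28 and 6.65. It was found in 10.1% of medial and 9.88% of lateral cells at full depth, with up to 20 UMIs in 1 cell of each library. Its partner Rrm1 differed 10.4-fold between the same kinds of cells (7.86 to 13.7), and Rrm2 30.9-fold (24.5 to 39.2).

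Slbp and Rfc2 had the lowest ratios over both libraries together, while in the lateral library Cdt1 (4.28) and Pold1 (4.78) lay below Rfc2 (4.83). Slbp, which binds the stem-loop of replication-dependent histone mRNAs, was at 178 CPM in medial and 162 CPM in lateral cells with many members, and at 47.4 and 49.6 CPM in the rest. Rfc2, a subunit of the complex that loads the sliding clamp, was at 148 and 187 CPM against 37.9 and 38.7. Thinned to 4000 UMIs, Slbp was found in 19.7% and 20.8% of cells and Rfc2 in 16.5% and 18.6%. At full depth these shares were 40.6% and 39.9% for Slbp and 35.01% and 34.4% for Rfc2.

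No cell type that should lack these genes was present, so free RNA was taken from 317127 medial and 321595 lateral barcodes with 1 to 100 UMIs. The summed members reached 672 CPM there in the medial and 734 CPM in the lateral library, above the mean of the cells. For 34 of 34 members the level in cells with fewer than 5 other members lay below that of free RNA, at 0.165 (Rrm2) to 0.809 (Pold1) of it. These levels do not tell whether a lone UMI in those cells came from the cell or from free RNA, so it is not read as expression. In cells with at least 5 other members 34 of 34 lay above free RNA, from 1.95 times for Slbp to 13.8 times for Clspn. Cells were split by the members themselves, and free RNA lay near the mean of all cells. A level of free RNA between those of both kinds of cells thus follows largely from that split. These counts were not made for other genes. How much free RNA the cells held was not tested.

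**Figure D2:**
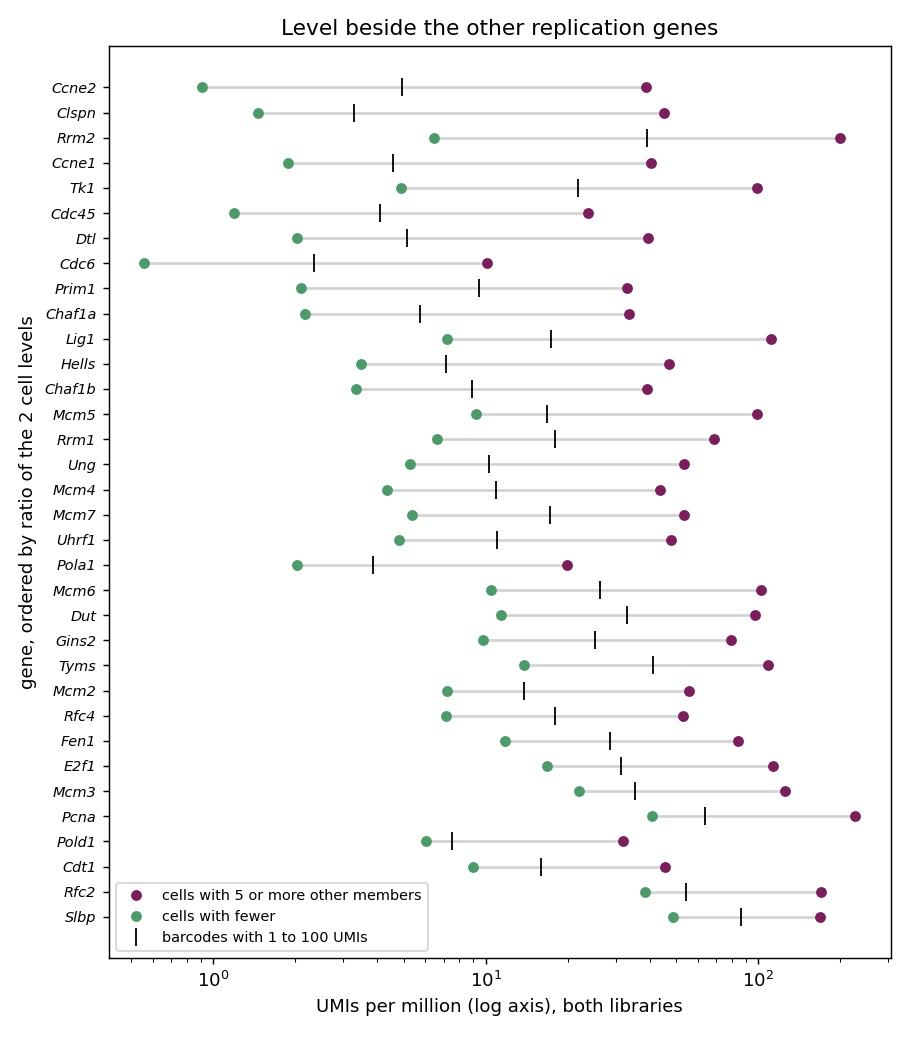
Level of each replication gene (CPM, log axis, both libraries together, cells at 4000 UMIs) in cells with at least 5 of the other members (purple), in the remaining cells (green) and in barcodes with 1 to 100 UMIs (black bars). Ratios of purple to green run from 3.48 for Slbp to 42.9 for Ccne2, and each black bar lies between the 2 points of its gene.

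Within the ring helicase the 6 subunits were seen together in few cells. All of Mcm2 to Mcm7 had a UMI in 30 medial cells, 1.41% (0.952 to 2.00), and in 34 lateral cells, 1.47% (1.02 to 2.05), at full depth. At 4000 UMIs at least 4 of the 6 were found in 15 medial cells (0.756%) and 23 lateral cells (1.12%). Just 1 subunit was detected in 23.5% of medial and 23.2% of lateral cells at full depth. Carrying cells held a mean of 1.26 (Mcm4, lateral) to 1.78 (Mcm6, lateral) UMIs of a subunit, so further subunits can go undetected. These shares do not tell which subunits a cell expressed.

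Levels in the 2 regions were then compared over all cells. The members tended to be lower in the medial library: 28 of 34 had a ratio below 1, where 57.8% of the 11324 genes with at least 30 UMIs did. Their median log2 ratio of medial over lateral was -0.17, with -0.03 over all measured genes, and the summed UMIs gave -0.14 (-0.18 to -0.11). A ratio below 0.8, called past the fold here, was found for 6 of 34 members (Dtl, Prim1, Cdc45, Mcm5, Ung and Cdc6), and for 6.99% of all measured genes. A medial excess of that size was found for 0 of 34, and for 8.16% of all measured genes. There is no replicate check of these differences. With thinned cells the share of cells with at least 5 members was larger in the lateral library, at 12.1% beside 9.98% in the medial. At full depth, where the ratios above were taken, it was not, at 24.96% in lateral and 25.2% in medial cells. That share counts UMIs of the same genes, so it is no independent check of the ratios.

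The MCM genes, which encode the helicase ring, were all lower in the medial library, 1 of 6 past the fold, beside 57.8% and 6.99% of all measured genes, and their sums were 111 and 131 CPM, a log2 ratio of -0.25 (-0.32 to -0.17). Mcm5 (chr8:75109569-75128439) was at 18.4 CPM (432 UMIs) in medial and 24.3 CPM (559 UMIs) in lateral cells, a log2 ratio of -0.40 (-0.58 to -0.21). The other 5 had log2 ratios between -0.29 for Mcm7, of whose 57-nt windows 15.4% also occur in other annotated genes, and -0.09 for Mcm4, whose interval ran to 0.18.

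Of the licensing and activation factors, Cdc6 and Cdc45 rest on few counts. Cdc6, which recruits the ring to origins, was at 1.75 CPM (41 UMIs) and 2.21 CPM (51 UMIs), log2 ratio -0.34 (-0.97 to 0.28), so that its place past the fold is within counting error. Its partner Cdt1 was at 14.1 and 13.7 CPM, log2 ratio 0.04 (-0.18 to 0.27). Cdc45, part of the active helicase, was at 3.20 and 4.30 CPM, log2 ratio -0.43 (-0.88 to 0.02). Gins2, a GINS subunit, was at 19.1 and 21.8 CPM.

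The largest difference was that of Dtl (chr1:191537356-191575544), an adaptor of the ubiquitin ligase that removes Cdt1 on replicating chromatin. It was at 4.73 CPM (111 UMIs) in medial and 7.77 CPM (179 UMIs) in lateral cells, a log2 ratio of -0.71 (-1.07 to -0.36), and was found in 4.08% and 5.98% of cells at full depth. Prim1, described next, was farther from 0 than Dtl with cells at 4000 UMIs (-0.91 beside -0.87), with each cell counted alike (-0.71 beside -0.66) and without the deepest cells (-0.72 beside -0.57). Clspn, at 5.89 and 6.42 CPM, had a log2 ratio of -0.13 (-0.47 to 0.22), which was -0.68 with cells at 4000 UMIs.

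Next came Prim1 (chr10:128015168-128030037), the primase subunit that makes the RNA primer, at 5.20 CPM (122 UMIs) in medial and 8.24 CPM (190 UMIs) in lateral cells, a log2 ratio of -0.66 (-1.0 to -0.33). Pola1, the catalytic subunit of its partner polymerase alpha, was nearly equal at 4.22 and 4.12 CPM. The lagging-strand polymerase gene Pold1 was at 9.43 and 10.1 CPM, log2 ratio -0.10, which turned to 0.27 with cells at 4000 UMIs. Primase and polymerase alpha work as 1 complex, and of its 2 genes among the members Prim1 was past the fold and Pola1 was not. The other subunits of the complex, Prim2 and Pola2, were not past the fold either. Their log2 ratios were -0.26 (-0.58 to 0.07) and -0.12 (-0.45 to 0.20).

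The clamp and its loader showed small differences. Pcna (chr2:132249162-132253314), the sliding clamp, was the only member with an interval above 0, at 70.0 and 64.0 CPM, log2 ratio 0.13 (0.03 to 0.23), which turned to -0.01 with cells at 4000 UMIs. It shares 17.6% of its 57-nt windows with other annotated genes, among them a pseudogene. Rfc2 had 49.7 and 55.4 CPM, a log2 ratio of -0.16 (-0.27 to -0.04), and Rfc4 at 13.01 and 14.3 CPM. Of the genes that finish the lagging strand, the flap nuclease Fen1 was at 22.7 and 25.9 CPM and the ligase Lig1 at 20.99 and 22.2 CPM.

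The nucleotide supply group, which here also holds Ung, was lower in the medial library for 6 of 6 members, beside 57.8% of all measured genes. Only Ung was past the fold, 1 of 6 beside 6.99% of all measured genes. The sum of the group was 121 and 140 CPM, log2 ratio -0.21 (-0.28 to -0.13). Ung (chr5:114130386-114139323), which removes uracil from DNA, stood at 10.7 CPM in medial and 13.7 CPM in lateral cells, a log2 ratio of -0.36 (-0.61 to -0.12), which was -0.70 with cells at 4000 UMIs. Tyms, which makes thymidylate, had 26.4 and 31.6 CPM, a log2 ratio of -0.26 (-0.42 to -0.11), and Rrm2 at 29.6 and 34.1 CPM, log2 ratio -0.20 (-0.35 to -0.05), which was -0.36 when each cell counted alike. The salvage kinase Tk1, the dUTPase Dut and Rrm1 had intervals that held 0.

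Chromatin genes lay closer to equality. Hells, a remodeller of the SNF2 family, was at 8.53 and 10.6 CPM, log2 ratio -0.32 (-0.59 to -0.04), just short of the fold. Uhrf1, which brings the maintenance methyltransferase to new DNA, was at 10.3 and 11.8 CPM with 13.2% of its windows shared with other genes. The 2 large subunits of the histone chaperone CAF-1, Chaf1a and Chaf1b, had log2 ratios of -0.02 (-0.33 to 0.30; -0.54 with cells at 4000 UMIs) and 0.11 (-0.19 to 0.40). Slbp was at 65.7 and 68.6 CPM, log2 ratio -0.06 (-0.16 to 0.04).

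Of the regulators of the G1 to S transition, E2f1, an activator E2F, was at 28.2 and 31.9 CPM, log2 ratio -0.18 (-0.33 to -0.03). Cyclin E1, Ccne1, was at 6.48 and 6.20 CPM and Ccne2 at 4.78 and 4.51 CPM, with log2 ratios of 0.06 (-0.28 to 0.40) and 0.08 (-0.32 to 0.48). The sign for Ccne1, Ccne2, Pola1, Chaf1a and Chaf1b was not the same under every alternative processing.

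**Figure D3:**
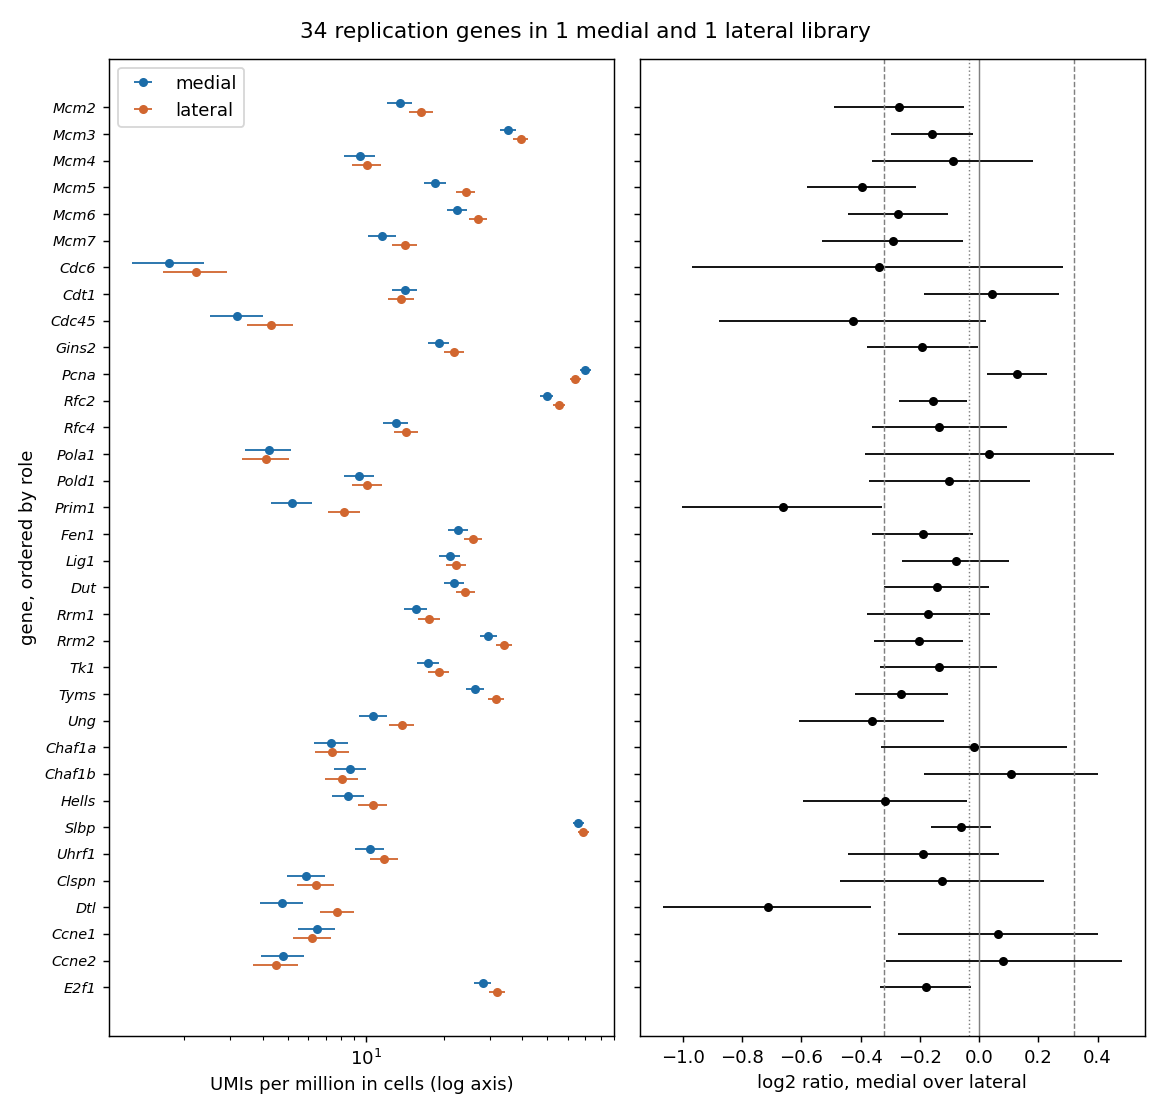
Left, level of the 34 genes (CPM in cells, log axis) in the medial (blue) and lateral (orange) library, with exact Poisson 95% intervals. Right, log2 ratio of medial over lateral with its exact 95% interval; dashed lines mark a ratio of 0.8 and its reciprocal and the dotted line the median of all measured genes at -0.03. Of the 34 points 28 lie left of 0, and Dtl and Prim1 lie farthest left.

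Cells at 4000 UMIs were then split by at least 5 members and by at least 5 of 40 mitosis genes. Cells with both came to 104 medial (5.24%) and 121 lateral (5.91%), those with replication genes alone to 94 (4.74%) and 127 (6.20%), and those with mitosis genes alone to 112 (5.65%) and 158 (7.72%). The summed members stood at 2237 and 2185 CPM in cells with replication genes alone, at 3221 and 3432 CPM with both, and at 516 and 476 CPM with mitosis genes alone. In cells of neither kind they were at 272 and 292 CPM. No phase is read from these ranges, and for values of a single gene below that gene was left out of the count.

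Most members were higher in cells that also carried mitosis genes, and 4 went the other way in both libraries. The summed members were higher in cells with both lists too, as given above. Counts of genes on each side were not made for other genes, so they are not read as particular to the members. Rrm2 showed the widest gap, at 40.8 CPM in medial and 32.0 CPM in lateral cells with replication genes alone and at 337 and 383 CPM in cells with both, log2 ratio over both libraries -3.34 (-3.92 to -2.81). Tk1 had 37.2 and 25.8 against 151 and 182 CPM, log2 ratio -2.45 (-3.10 to -1.85), and Tyms 53.2 and 33.3 against 148 and 196 CPM, log2 ratio -2.05 (-2.61 to -1.52). So 3 enzymes of deoxynucleotide supply were among the 4 members most weighted to cells with both lists, and Ccne2 was the other one, with 10 UMIs in cells with replication genes alone and 59 in cells with both.

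Ung, grouped with the nucleotide genes here though it acts on DNA, had the opposite pattern. It was at 54.9 CPM in medial and 91.1 CPM in lateral cells with replication genes alone and at 28.8 and 37.2 CPM with both, log2 ratio 1.18 (0.53 to 1.86). No Ung UMI was found in cells with mitosis genes alone, which allows up to 2.78 CPM over the 270 cells. Mcm2 (log2 ratio 0.62, 0.00 to 1.24), E2f1 (0.29, -0.13 to 0.71) and Mcm3 (0.09, -0.31 to 0.49) were the other members on that side in both libraries. For E2f1 and Mcm3 the interval held 0, and for Mcm2 its lower bound rounds to 0 and it held 0 within each library. In both libraries 25 members lay on the other side. The remaining 5 members, Mcm5, Hells, Pola1, Pold1 and Dut, changed sides between the libraries.

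**Figure D4:**
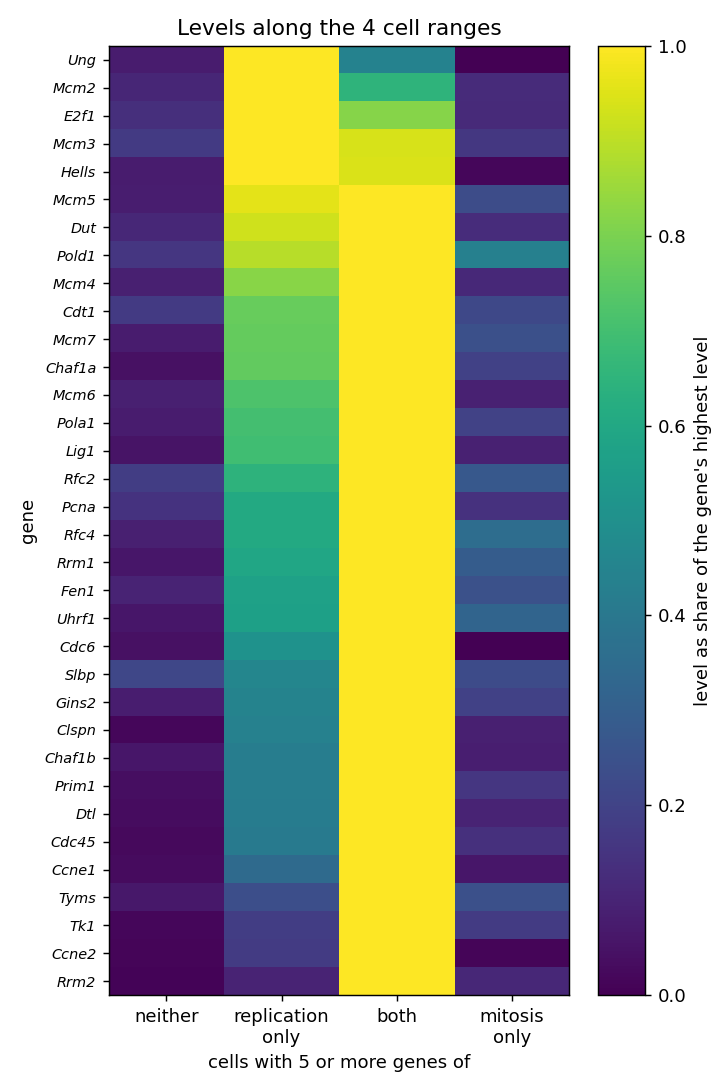
Level of each replication gene (colour, as a share of the gene's own highest level, both libraries together) in 4 ranges of cells at 4000 UMIs: fewer than 5 genes of either list, at least 5 replication genes alone, both lists, or mitosis genes alone. Genes are ordered by the ratio of the second to the third column, from Ung (75.4 and 33.3 CPM) to Rrm2 (35.7 and 362 CPM).

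Other genes of replication were taken from a list of 87. Of these, all 87 were measured, 62 had a ratio of medial over lateral below 1, 7 were past the fold on the lower side and 2 on the higher, beside 57.8%, 6.99% and 8.16% of all measured genes, with a median log2 ratio of -0.12 beside -0.17 for the members. The 2 higher ones, named after their values were seen, were Mcm10, with 98 and 74 UMIs, and Tfdp1, with 23 and 14 UMIs, both with intervals that held equality. Whether past the fold or not, the 3 genes of the 87 in each direction with the bound farthest from equality follow. On the lower side were Asf1b, a histone chaperone, at 14.7 and 19.0 CPM, and Ccna2, the S phase and mitotic cyclin A2, at 21.8 and 27.4 CPM. With them was Pole3, at 29.1 and 35.2 CPM, which was not past the fold. On the higher side were Cdkn1a, which encodes the cyclin kinase inhibitor p21, at 377 and 341 CPM, Pold4 at 170 and 160 CPM, and the dNTPase Samhd1 at 26.5 and 23.6 CPM. Cdk4 and Pole4 completed the 4 with most UMIs, at 131 and 142 CPM and at 83.4 and 94.0 CPM.

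This list was less uniform in cells with many members. Of its 77 genes with at least 100 UMIs, 53 were more than 2-fold and 26 more than 5-fold higher there, against 6.86% and 1.47% of all non-member genes. Brca1, a recombination and checkpoint factor, was at 21.3 CPM in cells with at least 5 members and 0.419 CPM in the rest, and E2f8, a repressor E2F, at 24.7 and 0.907 CPM. By contrast Tk2, the mitochondrial thymidine kinase, was at 7.85 CPM against 18.3 CPM, a ratio of 0.428 (0.231 to 0.731), which sets it apart from its cytosolic counterpart Tk1. Pold4 was at 146 and 176 CPM, Samhd1 at 23.5 and 25.9 CPM, and Cdkn1a at 409 and 340 CPM.

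Among all non-member genes with at least 100 UMIs, the 20 most concentrated in cells with at least 5 members included Brca1, E2f8, Asf1b and Rmi2 of that list, and 1 mitosis gene, Top2a. Others were Esco2, which acetylates cohesin during S phase, at 37.6 CPM against 1.19 CPM, Dscc1, part of an alternative clamp loader, at 19.6 and 0.628 CPM, and Tcf19 at 71.7 and 4.39 CPM. Fignl1, Lrr1, Hist1h1b, Fbxo5, Hist1h2ap, Aunip, Cdca5, Bard1, Pbk and Cenpk were also among them. Hist1h2ap belongs to a family of near-identical histone genes, so that its counts are uncertain. These values describe cells chosen by the members and carry no test.

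Genes of the mitosis list differed between the libraries too, and 37 of 40 had a ratio of medial over lateral below 1, beside 57.8% of all measured genes. Past the fold on the lower side were 15 of 40, beside 6.99%, and their median log2 ratio of -0.29 was farther from 0 than the -0.17 of the members. In cells with fewer than 5 members they were at 544 and 668 CPM, a log2 ratio of -0.30 (-0.36 to -0.24), and in cells with at least 5 members at 2403 and 2286 CPM, log2 ratio 0.07 (-0.02 to 0.16).

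Finally, the microglial state of the cells with at least 5 members was described by lists the members are not part of. Disease-associated microglial genes, among them Apoe, Spp1 and Lpl, took a median of 5.03% of UMIs in these cells of the medial library and 4.81% in the lateral, against 6.55% and 6.12% in the other cells. Homeostatic genes such as Cx3cr1 and P2ry12 took 1.70% and 1.84% against 2.02% and 2.00%. Both lists were lower in the cells with many members in each of the 2 libraries, and the ranges between the quartiles overlapped. Interferon-response genes were at 0.150% and 0.125% against 0.175% and 0.150%, and immediate early genes at 0.400% and 0.325% against 0.425% and 0.350%, differences of about 1 UMI at this depth. The medians for MHC class II genes were 0.05% in each of the 4 groups of cells, while their means were 0.0696% and 0.0833% against 0.164% and 0.128%.

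**Figure D5:**
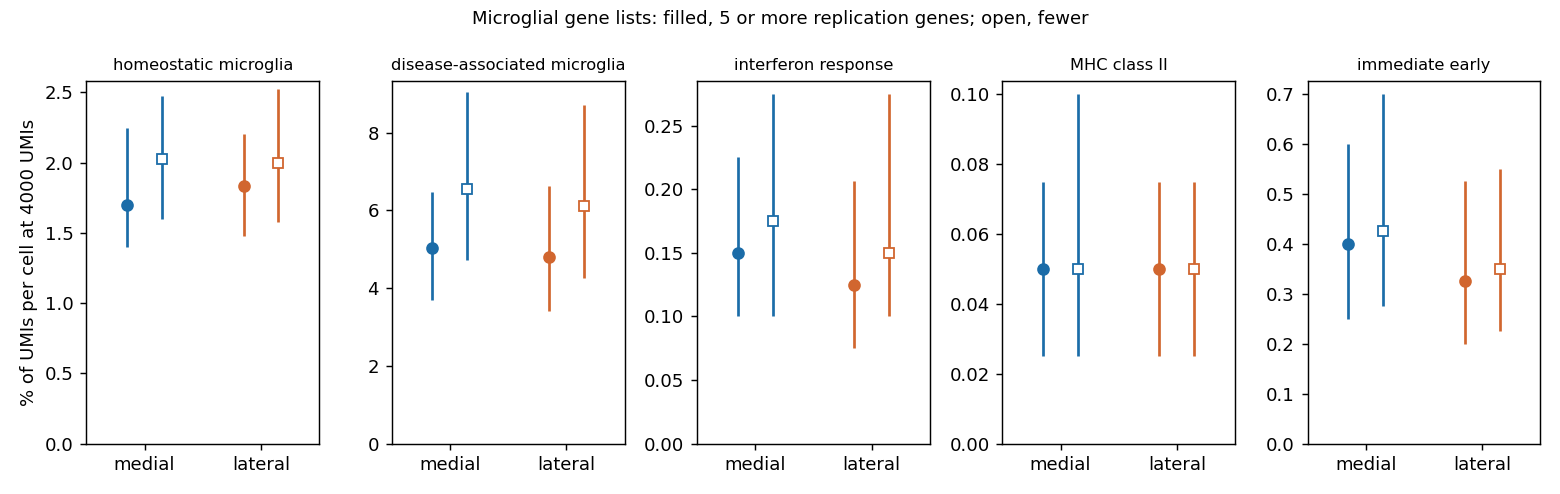
Percent of UMIs per cell from 5 gene lists (vertical axes, cells at 4000 UMIs) in the medial (blue) and lateral (orange) library, for cells with at least 5 replication genes (filled circles) and fewer (open squares). Points are medians over cells and bars run from the lower to the upper quartile; the disease-associated list stood at 5.03% and 4.81% in filled and at 6.55% and 6.12% in open points.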

How the data were processed

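The authors deposited raw UMI counts of 27998 gene rows over 737280 barcodes a library, empty droplets included. Per the submitters' processing notes the authors used Cell Ranger 2.0.1, STAR and mm10. The 56 symbols on more than 1 row were summed by symbol. Cells were called as stated above, which removed 3 barcodes per library by the mitochondrial limit. The cells held 81.8% of 28660496 medial and 82.4% of 27955414 lateral UMIs.

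CPM are UMIs summed over cells, scaled to 1000000. Intervals are exact (Poisson for levels, conditional binomial for ratios, Clopper-Pearson for shares) at 95% and cover counting error only. Cells were thinned without replacement to 4000 UMIs with a fixed seed. Gene coordinates and 57-nt windows come from GENCODE M21 (GRCm38), and promoters from RefSeq (GRCm38.p6). For 26 of 30 members the bases after the listed start lay in a GENCODE transcript of that gene. No doublets were removed in the values given: Scrublet, called from scanpy 1.11.5, marked 5 cells in each library, and leaving them out is an alternative. Ratios, intervals and thinning were tested on simulated data. Python 3.11.15, numpy 2.4.6 and scipy 1.17.1 were used.

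All members are named. Of the other replication genes the 4 with most UMIs and the 3 farthest from equality in each direction were taken, and of all other genes the 20 most concentrated, some of which are not reported here. Brca1, E2f8 and Tk2 were also chosen, after their values were seen, as extremes of the list. Prim2 and Pola2 were named, also after their values were seen, as partners of Prim1 and Pola1. The members and lists were chosen with earlier results of these data known.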

Additional observations from a re-analysis of the deposited data

How the results depend on the processing

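With cells thinned to 4000 UMIs the summed log2 ratio of medial over lateral was -0.19, the members' median -0.23 and 10 members had a ratio below 0.8, of 33 still measured and beside 10.2% of all genes. Centring on the median gene gave -0.11 and -0.13. At a fold of 1.5, 2 members (Dtl and Prim1) were lower, beside 1.82% of genes. The share of cells with at least 5 members was 5.44% medial and 6.72% lateral at 2400 UMIs, 19.3% and 22.5% at 8000 UMIs and 25.2% and 24.96% without thinning, the 1 setting of 9 in which the medial share was the higher. It was 13.1% and 16.1% for at least 4 and 5.35% and 6.35% for at least 8 members. The remaining settings (1000 or 5000 UMIs per cell, 5% mitochondrial UMIs, each cell counted alike, Scrublet-marked or deepest cells left out, other minimum counts, another seed) moved none of these summary values beyond their counting interval, or a count beyond 1.5 times. For the members' median, which has no interval of its own, the distance from the summed ratio to its bounds was the limit. None of the 6 members with a ratio below 0.8 turned direction in any of the 8 alternatives computed for single genes, and 0 members passed the fold on the higher side in any. Of the single members, Rrm2 moved to -0.36 when each cell counted alike. The cause of each change was not tested. No paired analysis was possible because each region has 1 library. Members with under 100 UMIs over both libraries, Cdc6 alone, are limited by depth.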
